A study of Mus musculus with 8 samples.

Results

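Transforming growth factor beta (TGF-beta) signaling was examined at the level of its 3 ligand genes, 3 receptor genes and 4 genes for latent TGF-beta binding proteins in cultured and uncultured skeletal myogenic progenitors. The 10 genes (Tgfb1, Tgfb2, Tgfb3, Tgfbr1, Tgfbr2, Tgfbr3, Ltbp1, Ltbp2, Ltbp3 and Ltbp4) were chosen by name from the 24980 gene symbols of the count table, and all 10 passed the filter on low counts that left 17582 genes for testing. RNA was sequenced from 8 libraries, 2 biological replicates in each of 4 groups of mouse cells. Freshly isolated teratoma-derived progenitors (TF) came from E14-EGFP embryonic stem cells, a single labeled line, that had formed teratomas in irradiated, cardiotoxin-injured muscle of NSG-mdx4Cv mice, which are immunodeficient and lack dystrophin. They were sorted as EGFP+, CD31-, CD45-, α7-integrin+ and VCAM-1+. Freshly isolated satellite cells (SF), the resident stem cells of adult muscle, are the endogenous counterpart. Expanded teratoma-derived cells (TE) and expanded satellite cells (SE) had been cultured on gelatin to passage 8. Strain, age and number of the satellite cell donors are not given in the sources used here.

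TGF-beta ligands are made as precursors and secreted in a latent form, bound to their own propeptide. Latent TGF-beta binding proteins (LTBPs) tie this latent complex to fibrillin and fibronectin in the matrix, from which integrins and proteases release the active ligand. Active ligand binds the type II receptor (Tgfbr2), which then phosphorylates the type I receptor (Tgfbr1), and SMAD2 and SMAD3 carry the signal to the nucleus. The type III receptor betaglycan (Tgfbr3) has no kinase and presents ligand, TGF-beta2 above all, to the type II receptor. In skeletal muscle, TGF-beta is known as an inhibitor of myoblast differentiation and fusion and as a driver of fibrosis.

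Libraries held between 11930961 and 21146632 estimated counts, and the ribosomal precursor Rn45s took 12.1% and 7.99% of them in TF against 17.0% to 21.3% in the other 6 libraries. This share moved with every comparison of TF, and its part in the results was not tested. Levels are given below as normalized counts, that is, estimated counts divided by a median-ratio size factor for each library, and a level of 3 counts, taken as the limit of detection, corresponds to between 2.15 and 3.89 normalized counts. Replicates within each group differed by more than sampling noise, with a chi-square per degree of freedom between 12.1 in TE and 93.0 in SE, so every library was kept as a separate sample. All 8 marker genes of skeletal myogenic cells were detected in every group, and their summed normalized counts lay between 20952 and 26066 in TF, 40121 and 40914 in TE, 35198 and 43882 in SF, and 56917 and 63142 in SE. Mean normalized counts of Pax7, the transcription factor of muscle stem cells, were 3990.4 in TF, 1372 in TE, 4313 in SF and 1458 in SE, and those of Itga7, the α7-integrin gene used in the sort, were 2736, 4897, 3337 and 4705. Vcam1, also used in the sort, had 4527 in TF, 590.1 in TE, 5978 in SF and 1411 in SE. Myod1, which marks activated and committed cells, had 784 in TF, 4822 in TE, 7802 in SF and 10601 in SE.

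The summed markers of fibroblasts, endothelium, blood cells, pericytes and Schwann cells were higher in each fresh library than in each expanded library of the same origin. The summed normalized counts of 8 fibro-adipogenic and fibroblast markers lay between 298108 and 298723 in TF, 42273 and 71581 in SF, 8895 and 9974 in TE, and 11968 and 14019 in SE. The collagen gene Col3a1 made up 89.6% to 89.7% of this sum in TF, 56.9% to 59.4% in SF and 98.9% to 99.6% in the expanded libraries. Without it, the other 7 markers summed to between 30859.6 and 30992 in TF, 18235 and 29083 in SF, 37.0 and 99.6 in TE, and 113 and 119 in SE. Pdgfra, which defines fibro-adipogenic progenitors, had a mean of 4239 normalized counts in TF and 1777 in SF against 6.03 in TE and 30.8 in SE, while Dpt was at 0 in TE and Lum at 0 in SE. The sum of 6 endothelial markers was between 1073 and 3646 in TF, 4794 and 6015 in SF, 6.94 and 16.5 in TE, and 20.6 and 33.6 in SE, with Kdr, Emcn and Cldn5 at 0 in both expanded groups. For 6 haematopoietic markers it was between 768 and 6680 in TF, 685 and 869 in SF, 47.2 and 62.4 in TE, and 62.2 and 167 in SE, with Ptprc and C1qa at 0 in both expanded groups. TF replicate 1 stood apart in both lists, with an endothelial sum of 3646 against 1073 and a haematopoietic sum of 6680 against 768 in TF replicate 2. Pericyte and smooth muscle markers, also 6, summed to between 10567 and 11922 in TF, 15305 and 16272 in SF, 1446 and 1469 in TE, and 1827 and 2396 in SE, with Kcnj8 at 0 in both expanded groups. Schwann cell markers, 4 genes, summed to between 181 and 186 in TF, 941 and 1119.8 in SF, 33.9 and 35.2 in TE, and 54.4 and 66.9 in SE. Pluripotency markers, also 4, summed to between 0 and 67.5 in TF, 128 and 173 in SF, 0.771 and 9.73 in TE, and 9.3 and 14.6 in SE, so TF and TE overlapped, and 0 of the 2 tested were called in any comparison. The other sums moved with the comparisons of culture below, their part in the results was not tested, and in bulk RNA fewer cells of a type and less RNA per cell cannot be told apart.

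Promoter sequences of 4 members are shown first. Of the 10 genes, 8 had entries among the RefSeq promoter sequences (12 windows of 250 bases before an annotated start, build GRCm38.p6). Tgfb2, Tgfbr2 and Ltbp2 are printed as an example of members whose levels followed each other across the 8 libraries (Pearson's r from 0.87 to 0.93). Other members did so as closely, such as Tgfbr1 and Ltbp4 (0.93). Ltbp1 is printed because it has distant alternative starts that the gene-level counts merge and because it differed between the expanded groups. Capitals mark matches, on either strand, to 9 motifs: the short SMAD-binding element CAGAC, its palindromic form GTCTAGAC, the E-box CAGCTG and a further E-box CACGTG, the AP-1 site TGANTCA, the cyclic AMP response element (CRE) TGACGTCA, the CCAAT box, the GC box GGGCGG and the TATA box TATAAA. None of these motifs contains another. Each sequence is given 5′ to 3′ on the strand of its gene and ends at the base before the start.
Tgfb2, chr1:186705990-186706239, minus strand: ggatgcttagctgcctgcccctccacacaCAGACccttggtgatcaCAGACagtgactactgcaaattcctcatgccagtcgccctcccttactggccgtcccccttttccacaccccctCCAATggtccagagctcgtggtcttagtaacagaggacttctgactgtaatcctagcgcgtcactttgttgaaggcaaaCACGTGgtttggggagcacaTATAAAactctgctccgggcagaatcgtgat
Tgfbr2, chr9:116175364-116175613, minus strand: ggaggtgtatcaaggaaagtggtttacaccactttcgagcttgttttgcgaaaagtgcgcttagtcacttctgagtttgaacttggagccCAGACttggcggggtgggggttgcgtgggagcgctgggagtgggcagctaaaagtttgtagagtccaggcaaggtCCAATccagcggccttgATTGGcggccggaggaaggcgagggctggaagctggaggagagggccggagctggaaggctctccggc
Ltbp2, chr12:84876492-84876741, minus strand: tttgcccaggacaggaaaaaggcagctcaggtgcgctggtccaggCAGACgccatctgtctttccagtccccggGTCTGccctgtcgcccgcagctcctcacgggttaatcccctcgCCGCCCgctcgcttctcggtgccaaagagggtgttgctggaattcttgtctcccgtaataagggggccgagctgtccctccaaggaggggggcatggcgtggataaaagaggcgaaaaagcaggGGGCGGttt
Ltbp1 upstream start, chr17:75005279-75005528, plus strand: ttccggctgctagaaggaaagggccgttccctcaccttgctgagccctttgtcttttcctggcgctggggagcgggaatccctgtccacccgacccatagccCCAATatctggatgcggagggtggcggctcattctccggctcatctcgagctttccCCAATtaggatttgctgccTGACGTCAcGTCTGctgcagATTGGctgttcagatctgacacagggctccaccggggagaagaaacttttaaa
Ltbp1 downstream start, chr17:75178531-75178780, plus strand: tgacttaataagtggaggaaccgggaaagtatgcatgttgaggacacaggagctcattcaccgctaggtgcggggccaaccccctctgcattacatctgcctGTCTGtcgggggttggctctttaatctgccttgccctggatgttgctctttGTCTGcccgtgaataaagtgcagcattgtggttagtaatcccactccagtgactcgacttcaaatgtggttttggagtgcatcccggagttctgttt

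The Tgfb2 window held 2 copies of CAGAC, at positions -221 to -217 and -204 to -200 from the start, an E-box at -51 to -46 and a TATAAA at -31 to -26. Ltbp2 held 2 matches to the SMAD element, Tgfbr2 held 1, and the upstream Ltbp1 start held 1 together with the CRE at -73 to -66. Over all 32851 mouse windows of this length, 42.2% held the CAGAC element, 6.02% CACGTG, 12.4% TATAAA and 1.55% TGACGTCA. CCAAT was in 33.8% and GGGCGG in 32.7% of them. CAGCTG (13.0%), TGANTCA (6.75%) and GTCTAGAC (0.167%) had no match in any of the 12 member windows. CAGAC was not found in the Tgfb1 window (75.2% GC, 5 GC boxes), the upstream Tgfbr1 window or the 3 Ltbp4 windows (up to 79.2% GC). It was found in every window printed above and in the downstream Tgfbr1 window and the Ltbp3 window. The printed windows are therefore not a fair sample of the 12 for this element. These matches describe the letters only.

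Among the ligands, Tgfb1 and Tgfb2 were higher in TF than in every other group, whereas Tgfb3 passed in no comparison. Tgfb1 (chr7:25687002-25705077, plus strand, GRCm38, 7 exons) encodes the TGF-beta1 precursor. It measured 1181 and 838 normalized counts in TF, 383 and 366 in TE, 341 and 502 in SF, and 524 and 349 in SE. TF stood above the remaining groups, and the libraries of SE, SF and TE overlapped. The log2 fold change was -1.38 ± 0.304 (SE of the estimate) in TE versus TF (adjusted p = 0.00911) and 1.41 ± 0.306 in TF versus SF (adjusted p = 0.00967). In SE versus SF it was 0.24 ± 0.301 (adjusted p = 0.547). The call in TE versus TF was lost without TF replicate 1 (adjusted p = 0.0721), TE replicate 1 (0.0521) or TE replicate 2 (0.0615), and that in TF versus SF without TF replicate 1 or SF replicate 1. TF replicate 1, with the higher Tgfb1 level of the pair, is also the library with the higher endothelial and haematopoietic sums given above, and their part in this value was not tested.

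Tgfb2 (chr1:186622792-186705989, minus strand, 7 exons), the isoform that depends most on betaglycan for receptor binding, had 3281 and 4102 normalized counts in TF and 805 and 904 in TE. In satellite cells it had 1282 and 1648 when fresh and 787 and 1147 when expanded. TF lay above SF, SF above SE, and SE and TE overlapped. Tgfb2 fell in TE versus TF with a log2 fold change of -2.06 ± 0.25 (adjusted p = 0.000315) and was higher in TF than in SF by 1.49 ± 0.245 (adjusted p = 0.00261). The change in SE versus SF, -0.41 ± 0.242, did not pass (adjusted p = 0.195), and it passed at -0.70 without SE replicate 2.

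Tgfb3 (chr12:86056745-86079041, minus strand, 7 exons) had 2397 and 3199 normalized counts in TF, 2761 and 3219 in TE, 1439.5 and 1752 in SF, and 945 and 2581 in SE. Neighboring groups in the order TE, TF, SE, SF all overlapped, and the SE replicates stood the farthest apart. Every TF and TE library was nevertheless above both SF libraries. No comparison passed the test in the main fit, although TF versus SF did in 5 of 13 alternatives, listed at the end. The log2 fold change was 0.15 ± 0.387 in TE versus TF (adjusted p = 0.805), 0.34 ± 0.389 in SE versus SF (adjusted p = 0.504) and 0.97 ± 0.392 in TF versus SF (adjusted p = 0.104). Without SE replicate 1 the value for SE versus SF was 0.91 and was called, and without SE replicate 2 it was -0.56. Tgfb3 overlaps Ttll5 on the opposite strand. The kit was stranded, but whether the quantification used strand is not given in the sources used here, so reads of the pair may not be told apart.

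**Figure D1:**
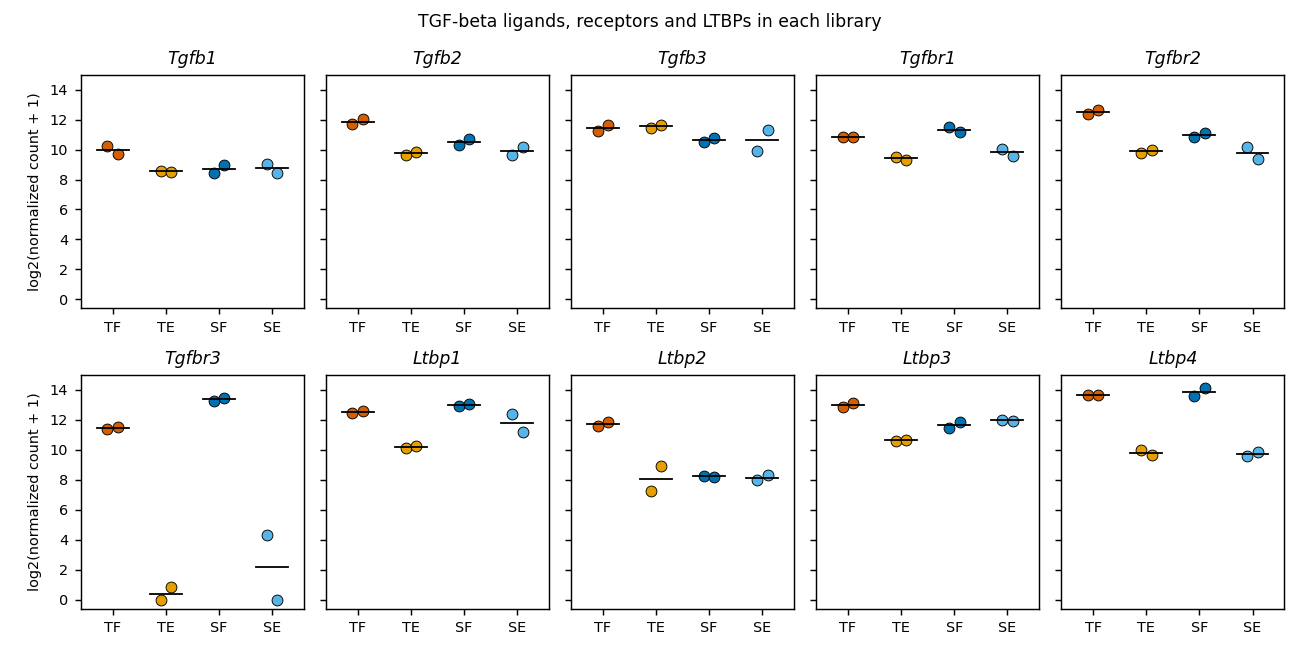
Level of each of the 10 genes in each library, as log2(normalized count + 1) on the y axis, by group on the x axis. Points are the 2 libraries of a group and bars their mean on this scale. Tgfbr3 sits between 0 and 19.3 normalized counts in the 4 expanded libraries and at 2624 or more in the 4 fresh ones.

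All 3 receptor genes were lower in expanded than in fresh cells of both origins, and Tgfbr3 was below the limit of detection after culture in every library except SE replicate 1. Tgfbr3 (chr5:107106570-107289629, minus strand, 17 exons in its longest coding transcript) had 2624 and 2971 normalized counts in TF and 9854 and 11391 in SF. In TE it was at 0 and 0.771, and in SE at 19.3 and 0. Every fresh library was thus far above every expanded library, and SF was above TF, while TE and SE overlapped. TE held 1 count in all against 4436 in TF, a ratio of 7377 in normalized counts with a 95% interval from 1323 to 291448 that covers counting error only. SE held 27 counts, all in replicate 1, against 17724 in SF, a ratio of 1013 with an interval from 696 to 1537. The test across all genes gave adjusted p = 2.93e-05 for TE versus TF and 1.41e-05 for SE versus SF. Between the fresh groups the log2 fold change in TF versus SF was -1.77 ± 0.497 (adjusted p = 0.0292), a call that DESeq2 did not make (adjusted p = 0.424) and that was lost when any of the 4 fresh libraries was left out.

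Tgfbr1 (chr4:47353222-47414931, plus strand, 9 exons), the signaling type I receptor ALK5, had 1829 and 1847 normalized counts in TF, 721 and 641 in TE, 2878 and 2309 in SF, and 1061 and 753 in SE. The groups lay in the order SF, TF, SE and TE, with no overlap between neighbors. It fell in both origins, with a log2 fold change of -1.38 ± 0.213 in TE versus TF (adjusted p = 0.0013) and -1.32 ± 0.212 in SE versus SF (adjusted p = 0.000973). The difference between these effects was -0.055 ± 0.295 (adjusted p = 0.978), and its sign depended on the scaling. Neither TF versus SF (-0.33 ± 0.208, adjusted p = 0.28) nor TE versus SE (-0.39 ± 0.21, adjusted p = 0.354) passed.

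Tgfbr2 (chr9:116084293-116175360, minus strand, 8 exons), the ligand-binding kinase, had 5326 and 6225 normalized counts in TF, 1846 and 2159.8 in SF, 856 and 1018 in TE, and 1139 and 668 in SE. TF was above SF and SF above TE, whereas TE and SE overlapped. Its log2 fold change was -2.57 ± 0.269 in TE versus TF (adjusted p = 0.000134), -0.96 ± 0.257 in SE versus SF (adjusted p = 0.0148) and 1.69 ± 0.261 in TF versus SF (adjusted p = 0.00195). The call in SE versus SF was lost without SF replicate 2 or SE replicate 2.

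The 4 LTBP genes fell in TE versus TF, and of these Ltbp1 and Ltbp4 also fell in SE versus SF. Ltbp4 (chr7:27305136-27337692, minus strand, 33 exons), whose product is prominent in muscle and lung matrix, had 12712 and 12749 normalized counts in TF and 12198 and 17494 in SF. It had 1021 and 795 in TE and 779.6 and 918 in SE. Fresh libraries of either origin overlapped, expanded libraries of either origin overlapped, and the fresh ones were all above the expanded ones. The log2 fold change was -3.75 ± 0.262 in TE versus TF (adjusted p = 1.32e-05) and -3.94 ± 0.264 in SE versus SF (adjusted p = 6.80e-06), and the difference of 0.19 ± 0.333 between them did not pass (adjusted p = 0.795).

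Ltbp1 (chr17:75005568-75392512, plus strand, 34 exons), which carries latent TGF-beta to fibrillin microfibrils, had 5713 and 6158 normalized counts in TF, 1127 and 1218 in TE, 7917 and 8417 in SF, and 5312 and 2385 in SE. The groups ran SF, TF, SE and TE without overlap, although SE replicate 1 came close to the TF libraries. The log2 fold change was -2.28 ± 0.323 in TE versus TF (adjusted p = 0.000781). In SE versus SF it was -0.90 ± 0.31 (adjusted p = 0.043), and this call was lost in 7 of 13 alternatives, among them the fit on only these groups (adjusted p = 0.11) and those without TF replicate 2, TE replicate 1, TE replicate 2, SF replicate 1, SF replicate 2 or SE replicate 2. Its value over the alternatives ran from -1.56, without SE replicate 1, to -0.42.

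Ltbp2 (chr12:84783212-84876532, minus strand, 36 exons), which binds fibrillin but not latent TGF-beta, was the member with the largest difference between fresh groups. It had 3115 and 3759 normalized counts in TF against 151 and 486 in TE, 304 and 295 in SF, and 252 and 312 in SE. TF stood alone, and the other groups overlapped. Its log2 fold change was 3.68 ± 0.464 in TF versus SF (adjusted p = 0.000724) and -3.38 ± 0.456 in TE versus TF (adjusted p = 0.000591). In SE versus SF it was 0.10 ± 0.428 (adjusted p = 0.864), with a sign that depended on the scaling. The TE replicates differed widely, and the value in TE versus TF was -2.73 without TE replicate 1 and -4.43 without TE replicate 2.

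Ltbp3 (chr19:5740904-5758532, plus strand, 28 exons), which also binds latent ligand, had 7468 and 8845 normalized counts in TF, 1553 and 1614 in TE, 2846 and 3701 in SF, and 4155 and 3864 in SE. The groups were ordered TF, SE, SF and TE without overlap. Its log2 fold change was -2.31 ± 0.209 in TE versus TF (adjusted p = 5.65e-05) and 1.47 ± 0.203 in TF versus SF (adjusted p = 0.00112), and in SE versus SF it was 0.48 ± 0.199 (adjusted p = 0.0798), called only without SF replicate 2 among the alternatives. Members share a chromosome in 2 cases, Tgfb1 and Ltbp4 at a distance of 1.60 Mb on chromosome 7 and Tgfb3 and Ltbp2 at 1.18 Mb on chromosome 12.

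The first question of the design was what culture does to cells of each origin. In TE versus TF, 9 of 10 members were called (adjusted p below 0.05, with a fold change past the threshold of the study's methods), 0 higher and 9 lower, where 26.1% of all tested genes were called, 9.86% higher and 16.2% lower. The median log2 fold change was -2.30 over the members and -0.18 over all genes. In SE versus SF, 5 of 10 were called, all lower, where 40.7% of all genes were called, 20.9% higher and 19.8% lower. Here the median was -0.65 over the members and -0.23 over all genes, so the members' share of calls was near that of all genes while their calls were all in the lower direction. With median-ratio in place of TMM scaling, the all-gene median shifted by -0.19 in SE versus SF, by -0.16 in TF versus SF and by 0.14 in the difference between the effects of culture. The fibroblast markers were lower in expanded cells of both origins, with 8 of 8 of these markers called lower in TE versus TF and 7 of 8 in SE versus SF. All 6 endothelial markers were called lower in each comparison. The counts called lower were 6 of 6 and 5 of 6 for pericyte markers and 6 of 6 and 4 of 6 for haematopoietic markers. The part of these cell types in the members' changes was not tested.

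The effect of culture itself differed between origins for 5 of 10 members, all more negative in teratoma-derived cells, where 14.3% of all genes were called, 4.7% higher and 9.62% lower. By its arithmetic this difference is also TE versus SE minus TF versus SF. The same 5 members were called higher in TF versus SF, so their higher level in TF enters it directly. In TE versus SE, Ltbp3 was called lower (-1.32), while Tgfb1 (-0.20), Tgfb2 (-0.16), Tgfbr2 (0.077) and Ltbp2 (0.20) were not called. The difference, TE versus TF minus SE versus SF, was -3.48 ± 0.613 on the log2 scale for Ltbp2 (adjusted p = 0.0057), -2.79 ± 0.286 for Ltbp3 (adjusted p = 0.000452), -1.65 ± 0.343 for Tgfb2 (adjusted p = 0.0122), -1.61 ± 0.427 for Tgfb1 (adjusted p = 0.034) and -1.61 ± 0.363 for Tgfbr2 (adjusted p = 0.0175). For Ltbp2 the value was -2.86 without TE replicate 1 and -4.55 without TE replicate 2. Ltbp1, at -1.39 ± 0.438, did not pass (adjusted p = 0.0642), but it was called in 3 of 12 alternatives (no filter, DESeq2 and without SE replicate 2) and was -0.70 without SE replicate 1. Tgfbr3, at -2.60 ± 1.81 (adjusted p = 0.392), was called in 2 of them (no filter and without SE replicate 2). Tgfb1 lost its call without any of TF replicate 1, TE replicate 1, TE replicate 2, SF replicate 1 or SE replicate 1. Tgfb2 lost it without TE replicate 1, and Tgfbr2 without TF replicate 2, TE replicate 1 or SF replicate 1. The numbers of members and of all genes called also moved with the library left out, as given below.

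In fresh cells, the question was how teratoma-derived progenitors differ from satellite cells. In TF versus SF, 6 of 10 members were called, 5 higher (Tgfb1, Tgfb2, Tgfbr2, Ltbp2 and Ltbp3) and 1 lower (Tgfbr3), where 24.2% of all genes were called, 15.1% higher and 9.13% lower. The median was 1.19 over the members and 0.080 over all genes. Tgfb3, Tgfbr1, Ltbp1 and Ltbp4 did not pass. The fibroblast marker sum was higher in each TF library than in each SF library, also without Col3a1, with 4 of 8 markers called higher and 0 lower. Haematopoietic markers were called higher in 4 of 6 cases, although the sums overlapped, and the endothelial sum was lower in TF than in SF. The pericyte and Schwann marker sums were also lower in each TF library than in each SF library. Their part in these differences was not tested.

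In expanded cells, TE was compared with SE. Of the members, 2 of 10 were called, both lower in TE, where 7.21% of all genes were called, 3.15% higher and 4.07% lower. Ltbp1 had a log2 fold change of -1.69 ± 0.317 (adjusted p = 0.012) and Ltbp3 of -1.32 ± 0.202 (adjusted p = 0.00468). The libraries of the groups did not overlap for either gene. The value for Ltbp1 was -1.0 without SE replicate 1, where it was still called. Of the 8 fibroblast markers, 1 (Pdgfra, at 6.03 against 30.8) was called lower in TE and 0 higher. Of the 6 pericyte markers, 1 was called lower (Rgs5, at 0 against a mean of 964) and 1 higher (Myh11, at 29.0 against 3.29). Their sum was lower in each TE library than in each SE library. No endothelial, haematopoietic or Schwann marker was called. The part of these markers in the differences was not tested. Without TE replicate 1 neither Ltbp1 nor Ltbp3 was called, and without TE replicate 2 only Ltbp1 was. Tgfb3, at 0.78 ± 0.39, did not pass (adjusted p = 0.314) and neither did Tgfbr3 (adjusted p = 0.145), which was under the limit of detection in 3 of the 4 libraries. Without SE replicate 2, in which Tgfb3 was high and Tgfbr3 at 0, both were called, and 4 members were called in all. Comparisons that share a group share its libraries and are not independent of each other.

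**Figure D2:**
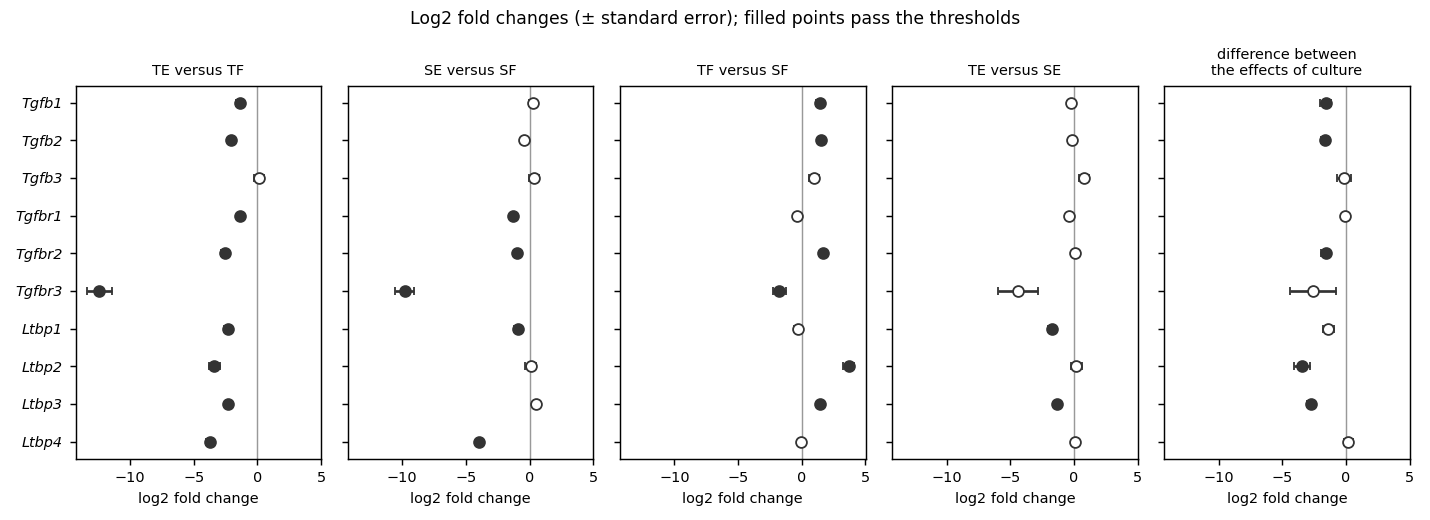
Log2 fold change (x axis) of each member (y axis) in the 4 comparisons between groups and in the difference between the effects of culture, with bars for the standard error. Filled points pass the thresholds; 9 of 10 do so in TE versus TF, 5 in SE versus SF, 6 in TF versus SF, 2 in TE versus SE and 5 in the difference.

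Levels were compared between genes as normalized counts per kilobase of the longest coding transcript, which is an approximation where several isoforms exist. Ligand totals on this scale were 1893 and 2133 in TF, 1149 and 1297 in TE, 833 and 1071 in SF, and 674 and 1148 in SE. Tgfb3 made up a mean of 40.9% of the ligand total in TF, 72.2% in TE, 49.7% in SF and 54.0% in SE. In SE this share was 41.4% in replicate 1 and 66.5% in replicate 2, a range that spans the SF values. In TE the Tgfb3 level per kilobase was the highest of the 10 members, at 884 ± 95.8 (SD, n = 2), followed by Ltbp3 at 305 ± 8.34.

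Receptor totals per kilobase were 1407 and 1578 in TF and 2347 and 2539 in SF, against 231 and 237 in TE and 328 and 213 in SE. Betaglycan transcript was 71.3% of the receptor total in SF and 30.8% in TF, but 0.0267% in TE and 0.483% in SE. Tgfbr2 was the most abundant receptor transcript in TF (47.8%), and in the expanded groups Tgfbr1 and Tgfbr2 shared nearly the whole total, at 50.6% and 49.4% in TE and 58.7% and 40.8% in SE. LTBP totals per kilobase were 5116 and 5549.9 in TF, 4045 and 5267 in SF, 679.9 and 713 in TE, and 1779 and 1319 in SE. Ltbp4 led the LTBPs in both fresh groups, with 44.4% in TF and 58.8% in SF, and Ltbp3 led in both expanded groups, with 43.8% in TE and 50.7% in SE. In SE replicate 1, Ltbp3 and Ltbp1 were nearly equal, at 45.0% and 44.8%, against 56.5% and 27.1% in replicate 2.

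**Figure D3:**
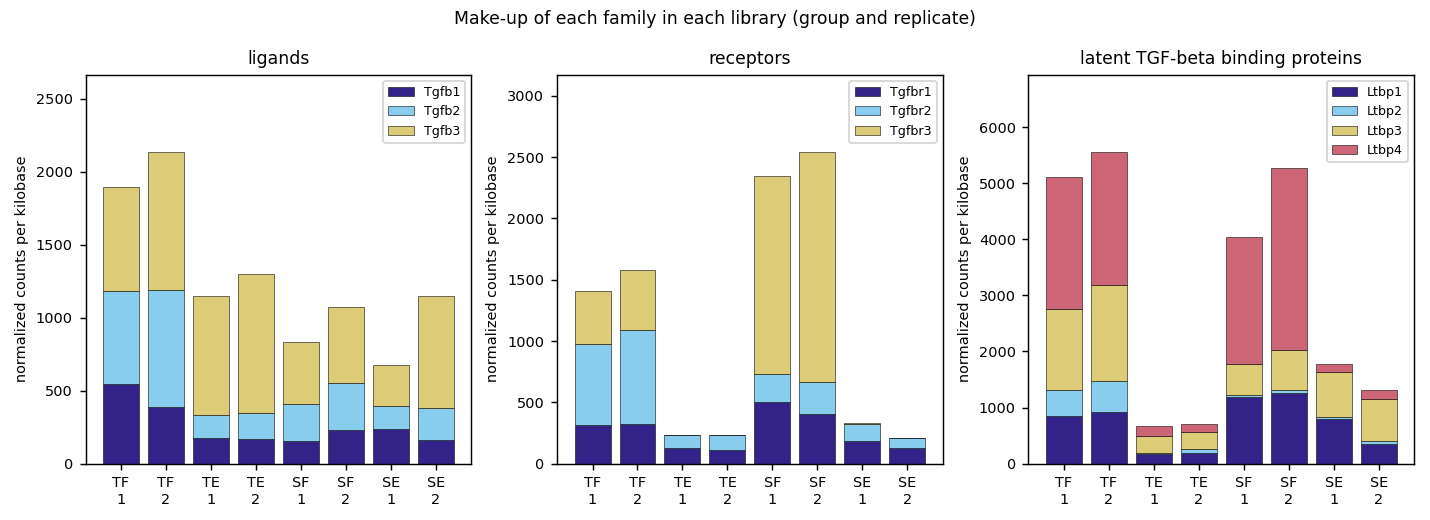
Stacked normalized counts per kilobase (y axis) of the ligands, receptors and LTBPs in each of the 8 libraries (x axis, group and replicate). Receptor totals are between 213 and 328 in the 4 expanded libraries and between 1407 and 2539 in the 4 fresh libraries, and the Tgfbr3 segment is not visible after culture apart from a thin edge in SE replicate 1.

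Across the 8 libraries, which fall into 4 groups and so are not 8 independent conditions, the members formed patterns that are given here as descriptions. On the log2(normalized count + 1) scale, Pearson's r was 0.98 between Tgfbr1 and Tgfbr3 and 0.96 between Tgfbr3 and Ltbp4. These genes were lower in every expanded library than in every fresh one. Ltbp1, Tgfbr2 and Tgfb2 were so as well, with r to Tgfbr1 of 0.92, 0.71 and 0.60. Among the genes that were highest in TF, r was 0.93 between Tgfb2 and Tgfbr2 and 0.92 between Tgfb2 and Ltbp2. Tgfb1 and Ltbp3, also highest in TF, had r to Tgfb2 of 0.82 and 0.84. The lowest value was -0.54, between Tgfb3 and Ltbp1. Among the 12671 tested genes that averaged 50 normalized counts or more, the closest to each member was Bmpr1b for Tgfb1 (0.976), Ccdc80 for Tgfb2 (0.990), Wbp1l for Tgfb3 (0.956), Gpc6 for Tgfbr1 (0.993), Steap3 for Tgfbr2 (0.992), Bdkrb1 for Tgfbr3 (0.998), Sema6d for Ltbp1 (0.992), Ptpdc1 for Ltbp2 (0.987), Ptgfrn for Ltbp3 (0.988) and Cfb for Ltbp4 (0.998).

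The other genes of the pathway were described by lists of 56 genes in all. In TE versus TF, 3 were higher and 36 lower, where 9.86% and 16.2% of all genes were, and in SE versus SF 7 were higher and 31 lower, where 20.9% and 19.8% of all genes were. In TF versus SF, 18 were higher and 5 lower, beside 15.1% and 9.13% of all genes, and in TE versus SE 5 were higher and 8 lower, beside 3.15% and 4.07%. The difference between the effects of culture passed for 21 of them, 4 higher and 17 lower, beside 4.7% and 9.62% of all genes. Median log2 fold changes over the 56 genes were -1.62 in TE versus TF, -1.18 in SE versus SF, 0.47 in TF versus SF and -0.069 in TE versus SE.

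Of 18 genes for activation and matrix storage, 13 were lower and 1 higher in TE versus TF, and 8 were lower and 3 higher in SE versus SF. The shares of all genes called were 26.1% and 40.7%. Fbn1, the fibrillin to which LTBPs attach, had 35529.6 and 43853 normalized counts in TF, 3608 and 3365 in TE, 5966 and 7485 in SF, and 1955 and 1592 in SE. TF was the highest group and SE the lowest, with no overlap, and TF versus SF gave 2.72 ± 0.234 (adjusted p = 0.000143). Mmp2, a gelatinase that can release latent ligand, had 8904 and 8824 in TF, 439.6 and 321 in TE, 5254 and 7040.3 in SF, and 2085 and 1866 in SE, and fell in TE versus TF by 4.49 on the log2 scale (SE 0.257, adjusted p = 5.07e-06). It was also lower in TE than in SE (-2.35 ± 0.235, adjusted p = 0.000564). Emilin1, whose product restrains processing of the TGF-beta precursor, was at 269.6 and 352 in TE against 1120.1 and 1034 in SE (-1.77 ± 0.221, adjusted p = 0.0016), and at 4182 and 4716 in TF. Mmp14, a membrane protease, was at 10374 and 11245 in TF and 2301 and 2879 in SF (2.22 ± 0.2, adjusted p = 0.000168). Bmp1, a protease that cleaves LTBP1, was lower in SE, at 824 and 776, than in SF, at 2994 and 3649 (-1.86 ± 0.188, adjusted p = 6.53e-05).

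Of 10 accessory receptors and receptor regulators, 4 were lower and 1 higher in TE versus TF, and 3 lower and 2 higher in SE versus SF. The 5 of 10 called in SE versus SF lie near the 40.7% of all genes, and in TE versus TF 26.1% of all genes were called. Eng (endoglin), a co-receptor related to betaglycan and abundant in endothelium, had 1329 and 1186 normalized counts in TF, 639 and 623 in TE, 706 and 1105 in SF, and 40.8 and 37.8 in SE. SE stood below all other groups. Eng was higher in TE than in SE by 4.02 ± 0.293 on the log2 scale (adjusted p = 9.27e-05) and lower in SE than in SF by -4.34 ± 0.296 (adjusted p = 7.55e-06). Acvrl1 (ALK1), a type I receptor of endothelium, had 774 and 523 in TF but 0 and 6.17 in TE (adjusted p = 0.000367), and 419 and 660.2 in SF but 0 and 3.43 in SE. Bambi, a pseudoreceptor that dampens the signal, was between 284 and 533 in fresh libraries and between 22.9 and 41.6 in expanded ones, and was called lower in both origins (adjusted p = 0.000829 in TE versus TF and 0.000141 in SE versus SF). Cd109, a surface protein that binds TGF-beta, was higher in TF, at 454 and 695, than in SF, at 289 and 268 (1.21 ± 0.255, adjusted p = 0.00877). Acvr1, an activin and BMP type I receptor, was lower in TE, at 534 and 565, than in SE, at 998 and 871 (-0.74 ± 0.187, adjusted p = 0.0425).

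Of 9 Smads and nuclear co-factors, 3 were lower and 0 higher in TE versus TF, and 6 lower and 0 higher in SE versus SF, and 0 passed in either direction in TE versus SE, where edgeR called 7.21% of all genes. The 3 of 9 called in TE versus TF lie near the 26.1% of all genes, and in SE versus SF 40.7% of all genes were called. Tgif1, a co-repressor of SMADs, had 4954 and 5130.3 normalized counts in SF against 1133 and 892 in SE (-2.13 ± 0.189, adjusted p = 3.19e-05), and 1268 and 1278 in TF. Its relative Tgif2 ran the other way between fresh groups, at 584 and 632 in TF and 131 and 193 in SF (2.06 ± 0.339, adjusted p = 0.00259). Zfyve9 (SARA), which brings SMAD2 and SMAD3 to the receptor, was lower in SE, at 727 and 610.1, than in SF, at 2254 and 2293 (-1.57 ± 0.212, adjusted p = 0.000348). All 4 small proteoglycans that bind TGF-beta were called lower in TE versus TF and 3 in SE versus SF, where 16.2% and 19.8% of all genes were. Dcn (decorin), which is also counted among the fibroblast markers above, was at 13515 and 12229 in TF and 9758 and 16119.6 in SF but at 57.7 and 18.5 in TE and 0 and 14.6 in SE. Fmod was at 2529 and 4045 in SF and at 0 and 15.4 in SE. Bgn was at 28144 and 34384 in TF against 5804 and 6015 in TE and 5712 and 10519.5 in SF.

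Of 15 genes commonly used as TGF-beta targets, 12 were lower and 1 higher in TE versus TF, and 11 lower and 2 higher in SE versus SF. Of all genes, 26.1% and 40.7% were called in these comparisons. Pmepa1, a feedback inhibitor, had 4417 and 5315 normalized counts in TF, 596 and 559 in TE, 10166 and 12470.5 in SF, and 1066 and 1269 in SE, and was called lower in TE versus TF, in SE versus SF, in TF versus SF and in TE versus SE. Smad7, the inhibitory SMAD, had 1651 and 1404 in TF, 517 and 439 in TE, 1331 and 2040.0 in SF, and 867 and 531 in SE.

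Smad7 fell in TE versus TF (-1.62 ± 0.294, adjusted p = 0.00323) and in SE versus SF (-1.08 ± 0.289, adjusted p = 0.0144), and neither comparison of origin passed. Skil (SnoN), a further feedback inhibitor, was between 5955 and 8652 in fresh libraries and between 1801 and 3288 in expanded ones, and also passed in both comparisons of culture only. Junb, an immediate early gene as well as a target, was between 14167 and 23917 in fresh and between 438 and 562 in expanded libraries. Col1a1, a fibrillar collagen made mainly by fibroblasts, was at 209379 and 213163 in TF, 262 and 121 in TE, 17607 and 32545 in SF, and 3052 and 7582 in SE, and was lower in TE than in SE (-4.77 ± 0.575, adjusted p = 0.00139). Col1a2 had 216016 and 223059 in TF against 14596 and 27251 in SF (3.54 ± 0.484, adjusted p = 0.00107). Unlike Col1a1, it was higher in TE, at 18965 and 18964, than in SE, at 1455 and 3824 (2.87 ± 0.47, adjusted p = 0.00647). Tagln, a smooth muscle actin-binding protein, was also higher in TE, at 1440.0 and 1048, than in SE, at 230.3 and 377 (2.06 ± 0.272, adjusted p = 0.00206). It had 2904 and 3307 in TF and 1506 and 1687 in SF. Tagln was called lower in both comparisons of culture (-1.26 in TE versus TF and -2.20 in SE versus SF). Cdkn2b, a cell cycle inhibitor, was at 24.2 and 5.7 in SF, 203 and 153 in TF, 241 and 327 in TE, and 1191 and 696 in SE. SE was higher than SF by 6.19 on the log2 scale, whereas TE versus TF did not pass (0.73 ± 0.455, adjusted p = 0.259 by edgeR).

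**Figure D4:**
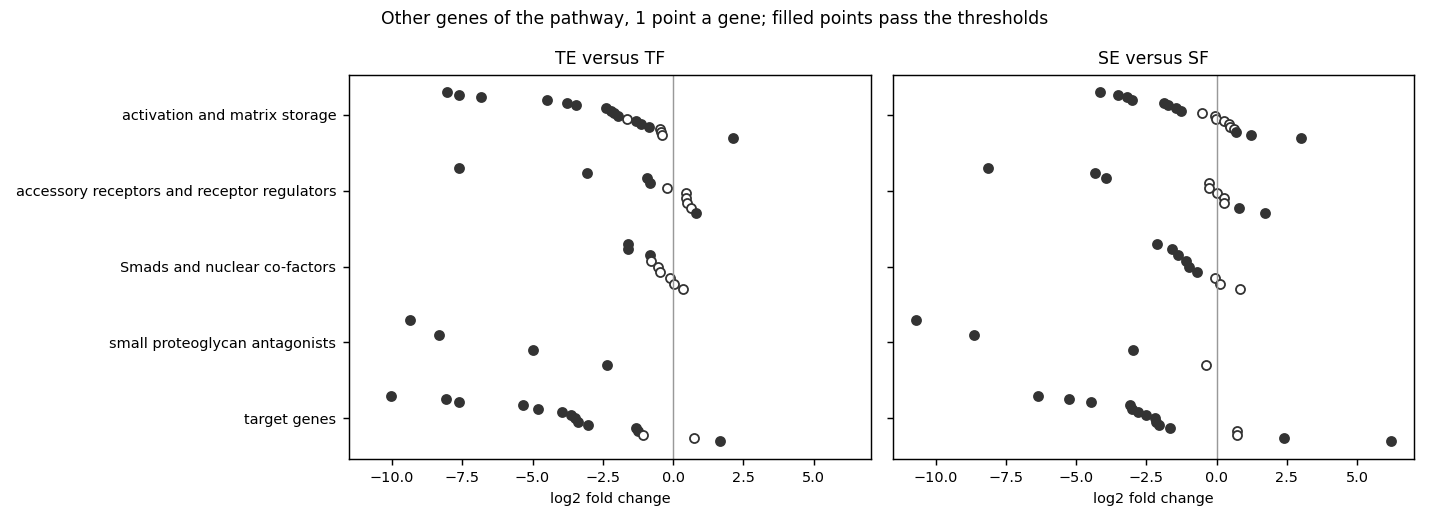
Log2 fold change (x axis) of each of the 56 other pathway genes, 1 point a gene, by list (y axis), in TE versus TF and SE versus SF. Filled points pass the thresholds, and 36 of 39 filled points on the left and 31 of 38 on the right lie below 0.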

How the data were processed

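The authors deposited 1 table of estimated counts per gene symbol, not normalized, for 8 libraries made with a stranded kit for small amounts of total RNA. The submitters' processing notes name CASAVA, kallisto 0.44.0 and the GRCm38 build, and the annotation and the step from transcripts to genes are not given in the sources used here. kallisto shares reads between similar transcripts, so values need not be whole (exactly whole, zeros included, were 74.4% to 84.4% of a library's values, and 70.0% to 75.4% of those above 0). Libraries were grouped by their titles. Counts were rounded, filtered with filterByExpr, TMM-normalized and compared by quasi-likelihood tests (edgeR 4.0.16, R 4.3.3) in 1 fit over the 4 groups, with Benjamini-Hochberg adjustment over 17582 genes and a fold threshold of 1.25, and standard errors were derived from the F statistic. The fit was checked on simulated data with known changes. Levels used DESeq2 1.42.0 size factors. With 2 libraries a group the spread is estimated weakly (common dispersion 0.233). Coordinates and lengths came from GENCODE M21 and promoters from RefSeq. The alternatives were median-ratio scaling, no filter, DESeq2, only the 2 groups compared, a replicate block, glmTreat and each library left out. For glmTreat only the numbers of calls were kept, so statements on single genes over the alternatives leave it out. Named were the members, up to 2 called genes with the smallest adjusted p in each pathway list and comparison between groups, the feedback genes Smad7, Skil and Pmepa1, and the gene closest to each member. A further item of this rule is not reported here. Members, lists and tests were chosen with earlier results of these data known.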

Additional observations from a re-analysis of the deposited data

Results flagged for a closer look

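For 5 members the effect of culture differed between teratoma-derived and satellite cells by the test of the difference itself (edgeR's quasi-likelihood test, TE versus TF minus SE versus SF). The difference on the log2 scale was -1.61 for Tgfb1, -1.65 for Tgfb2, -1.61 for Tgfbr2, -3.48 for Ltbp2 and -2.79 for Ltbp3, each with the standard error and adjusted p given above. These are the 5 members called higher in TF versus SF, and their higher level in TF enters the difference directly. Leaving out 1 TE library moved the Ltbp2 difference to between -4.55 and -2.86. The fibroblast marker sum without Col3a1 was at least 30859.6 normalized counts in TF and at most 99.6 in TE, and at least 18235 in SF and at most 119 in SE, and the part of these markers in the differences was not tested. Among the alternatives tried, other than glmTreat, the Ltbp2 and Ltbp3 differences passed in every fit.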

How the results depend on the processing

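With 2 libraries a group, the precision is that of the standard errors given, and fits without 1 library also have fewer samples. Without the filter on low counts, TE versus SE gave 4 called members and 2260 called genes, against 2 and 1268, and DESeq2 gave 2122 genes. Uncalled values that changed sign with the scaling were Ltbp2 in SE versus SF (-0.092 under median-ratio scaling, -0.091 by DESeq2) and Tgfbr1 in the difference between the effects of culture (0.083 and 0.082). TMM in place of median-ratio scaling of the levels changed the order of the group means for Tgfb1 and Ltbp2. With single libraries left out, where a lone library was assumed to vary like the other groups, the number of genes called ran from 2739 to 5439 in TE versus TF, 2639 to 5072 in TF versus SF, 653 to 1698 in TE versus SE and 1467 to 2996 in the difference, and the number of members from 0 to 4 in TE versus SE and 2 to 7 in the difference. Log2 fold changes whose sign changed ran from -0.0199 to 0.41 for Tgfb3 in TE versus TF, and in SE versus SF from -0.061 to 0.59 for Tgfb1, -0.56 to 0.91 for Tgfb3 and -0.055 to 0.27 for Ltbp2. In TF versus SF, Ltbp4 ran from -0.34 to 0.26. In TE versus SE they ran from -0.45 to 0.12 for Tgfb1, -0.40 to 0.15 for Tgfb2, -0.25 to 0.51 for Tgfbr2, -6.45 to 2.08 for Tgfbr3, -0.87 to 0.82 for Ltbp2 and -0.061 to 0.29 for Ltbp4. In the difference they ran from -0.73 to 0.72 for Tgfb3, -0.28 to 0.21 for Tgfbr1, -4.69 to 3.85 for Tgfbr3 and -0.14 to 0.47 for Ltbp4. The cause of these changes was not tested.

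Samples with the same replicate number did not deviate together (correlations of their deviations between -0.0264 and 0.0755), so the numbers were not taken as pairs. With a replicate block, 1 member call changed, Tgfb3 in TF versus SF (0.96, adjusted p = 0.0418 by edgeR), and every other member call was as in the main fit. Tgfb3 in TF versus SF also passed without the filter, in the fit on only these groups and without either SE library.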
